A study of Mus musculus with 6 samples.

Results

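The ether-a-go-go family of voltage-gated potassium channels was described through 7 genes, Kcnh1, Kcnh2, Kcnh3, Kcnh4, Kcnh5, Kcnh7 and Kcnh8, whose rows were taken by gene symbol from the 23282 entries of the count tables. All 7 genes were counted in each of the 6 libraries, and all 7 were among the 15237 genes tested. RNA came from a forebrain hemisphere, without olfactory bulb and cerebellum, of adult male C57BL/6J mice, with 1 library per mouse. The 3 mice labelled WAS (water avoidance stress) sat for 1 h on a small platform in a basin of water, and for the 3 mice labelled control a dry container with that platform took the place of the basin for the same time. Mice were killed as soon as the hour had ended. The comparison asks which transcripts differ in the forebrain after an acute psychological stress. Inside the tables, the count columns of the libraries labelled WAS had headings that start with WC, and those labelled control had headings that start with WS. The sources used here do not define these headings. Groups follow the sample labels, and with exchanged labels each direction given here would be the opposite.

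The libraries held between 9248520 and 10502029 counts. Levels are given as CPM, counts scaled to the library total. QuantSeq reads the end of a polyadenylated transcript, so that a transcript gives reads from its 3′ end whatever its length, and CPM were not divided by gene length. In WAS replicates 1 and 3, striatal, thalamic and midbrain markers lay far from those of the other libraries. A list of 9 measured striatal genes summed to 182 and 417 CPM there, against 2111 CPM in WAS replicate 2 and between 1068 and 1462 CPM in the controls. A list of 10 midbrain and hindbrain genes summed to 63.5 and 92.2 CPM in WAS replicates 1 and 3, against 6.38 CPM in WAS replicate 2 and between 6.11 and 9.24 CPM in the controls. A list of 7 general neuronal markers summed to 5535, 5786 and 5647 CPM in the WAS-labelled replicates 1 to 3, below each of the controls at 6179, 6654 and 6053 CPM. Syt1 made up 42.1% of this sum, 5 of the 7 genes were below and 2 above 0, and their median log2 fold change was -0.055. Choroid plexus markers, most of whose counts were Ttr, set other libraries apart, with 41.9 CPM in WAS replicate 1 and 16.2 CPM in control replicate 2 against 917 to 1239 CPM elsewhere. The cerebellar gene Gabra6 had at most 1 count. The striatal gene Drd2 also had at most 1 count in every library, in contrast to the other striatal genes.

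Channels of the Kcnh family are built from subunits with a voltage sensor and a pore, an intracellular PAS domain at the start of the protein and a domain at its end that resembles the cyclic nucleotide-binding domain of HCN and CNG channels. The family divides into the eag subfamily (Kcnh1 and Kcnh5), the erg subfamily (Kcnh2, Kcnh6 and Kcnh7) and the elk subfamily (Kcnh3, Kcnh4 and Kcnh8). Eag channels are closed by a rise in intracellular calcium. Erg channels recover from inactivation faster than they close, which carries potassium current after a spike, and Kcnh2 is best known for repolarising heart muscle. Elk channels open near the resting potential and damp the firing of forebrain neurons.

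In the GRCm38 annotation, which corresponds to the mm10 build named in the submitters' processing notes, Kcnh1 lies on chromosome 1, Kcnh7 on chromosome 2, Kcnh2 on chromosome 5, Kcnh4 on chromosome 11, Kcnh5 on chromosome 12, Kcnh3 on chromosome 15 and Kcnh8 on chromosome 17. RefSeq promoter windows of build GRCm38.p6, with 250 bases before and 50 bases after a transcript start, matched 6 of the 7 genes, all but Kcnh3. The windows of 4 genes are shown because these genes differ in how their levels were distributed over the libraries: Kcnh1 and Kcnh4 were lowest in WAS replicates 1 and 3, Kcnh7 was lower in all 3 libraries labelled WAS, and Kcnh2 was higher in all 3. The windows are chr1:192190527-192190826 on the plus strand for Kcnh1, and on the minus strand chr11:100759729-100760028 for Kcnh4, chr2:63184238-63184537 for Kcnh7 and chr5:24329542-24329841 for Kcnh2, whose RefSeq start lies inside the annotated gene (24319589 to 24351604). Sequences run 5′ to 3′, and capitals mark matches on either strand to the GC box GGGCGG or to CCAAT.
Kcnh1: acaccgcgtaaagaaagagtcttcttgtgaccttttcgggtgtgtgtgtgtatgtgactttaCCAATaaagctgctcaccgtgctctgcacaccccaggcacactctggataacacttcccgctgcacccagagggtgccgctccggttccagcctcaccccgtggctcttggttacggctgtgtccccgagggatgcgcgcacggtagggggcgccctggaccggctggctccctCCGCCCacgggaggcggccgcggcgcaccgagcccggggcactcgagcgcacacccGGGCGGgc
Kcnh4: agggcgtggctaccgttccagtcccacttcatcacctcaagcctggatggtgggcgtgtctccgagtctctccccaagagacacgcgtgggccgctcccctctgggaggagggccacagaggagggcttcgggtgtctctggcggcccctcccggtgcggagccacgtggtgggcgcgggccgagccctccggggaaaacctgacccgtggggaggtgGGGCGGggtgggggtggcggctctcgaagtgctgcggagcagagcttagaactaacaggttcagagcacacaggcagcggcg
Kcnh7: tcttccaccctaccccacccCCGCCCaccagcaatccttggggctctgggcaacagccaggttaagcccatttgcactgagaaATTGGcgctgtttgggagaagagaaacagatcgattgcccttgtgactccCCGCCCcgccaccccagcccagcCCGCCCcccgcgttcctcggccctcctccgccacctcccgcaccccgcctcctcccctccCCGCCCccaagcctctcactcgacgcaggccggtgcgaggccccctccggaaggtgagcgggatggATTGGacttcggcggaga
Kcnh2: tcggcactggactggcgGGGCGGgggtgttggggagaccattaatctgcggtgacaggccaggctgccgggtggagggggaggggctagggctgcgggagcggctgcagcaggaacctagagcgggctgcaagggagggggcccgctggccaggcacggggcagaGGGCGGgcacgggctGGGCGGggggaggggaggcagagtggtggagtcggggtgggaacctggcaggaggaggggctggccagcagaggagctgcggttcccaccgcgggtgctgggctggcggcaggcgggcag
The GC content of these windows was 66.0% for Kcnh1, 68.7% for Kcnh4, 67.7% for Kcnh7 and 74.3% for Kcnh2, against a median of 52.7% over 32851 promoter windows. The GC box occurred 2 times in the Kcnh1 window, 1 time in Kcnh4, 4 times in Kcnh7 and 3 times in Kcnh2, and 35.7% of all windows hold it. CCAAT occurred 1 time in Kcnh1 and 2 times in Kcnh7, and is held by 37.4% of all windows. Neither the TATA box TATAAA (13.6% of all windows), nor the cyclic AMP response element TGACGTCA (1.79%), the AP-1 site TGANTCA (7.81%), the Egr site GCGTGGGCG (0.612%) or the glucocorticoid response element (0.00913%) was found on either strand of the 6 windows. The Egr site and the GC box share the letters GGGCG and can overlap.

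Kcnh3 and Kcnh1 were the abundant members of the family. Over the 6 libraries, Kcnh3 was measured at 108.4 ± 23.8 CPM (SD, n = 6) and Kcnh1 at 96.9 ± 25.5 CPM (SD, n = 6), and 87.5% and 85.9% of the genes tested had a lower mean than these. Kcnh2 followed at 14.6 ± 2.62 CPM (SD, n = 6), Kcnh7 at 12.1 ± 3.35 CPM (SD, n = 6), Kcnh4 at 6.19 ± 2.66 CPM (SD, n = 6), Kcnh5 at 3.26 ± 0.780 CPM (SD, n = 6) and Kcnh8 at 1.28 ± 0.685 CPM (SD, n = 6). Within the libraries this order was firm at some steps only. Kcnh3 exceeded Kcnh1 in 6 of 6 libraries although their ranges over libraries overlapped, and Kcnh1 exceeded Kcnh2 in 6 of 6 libraries, 6.62-fold by their means. Kcnh2 exceeded Kcnh7 in the 3 libraries labelled WAS but in only 1 of the 3 controls. The order of these neighbours thus differed between libraries and mostly followed the label. Kcnh4 exceeded Kcnh5 in the 3 controls and in 1 library labelled WAS. Kcnh6, the remaining gene of the family, had 2 counts in WAS replicate 3 and 0 in the other 5 libraries, which is under the level of 3 counts (between 0.286 and 0.324 CPM).

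Kcnh1 and Kcnh3 together made up between 78.3% and 87.5% of the summed Kcnh counts of a library. Kcnh2 took 11.0%, 5.65% and 8.57% of the Kcnh counts in the WAS-labelled replicates 1 to 3, and 5.06%, 4.24% and 4.42% of them in the controls. The share of Kcnh2 was thus higher in every library labelled WAS than in any control, with WAS replicate 2 nearest to the controls. The share of Kcnh3 lay between 43.1% and 45.3% in all 6 libraries. A share also rises where the other members fall. The summed Kcnh level was 168 CPM in WAS replicate 1, 272 CPM in WAS replicate 2 and 189 CPM in WAS replicate 3, against 280, 291 and 256 CPM in the controls. WAS replicate 2 lay inside the control range and the other libraries labelled WAS lay below it.

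**Figure D1:**
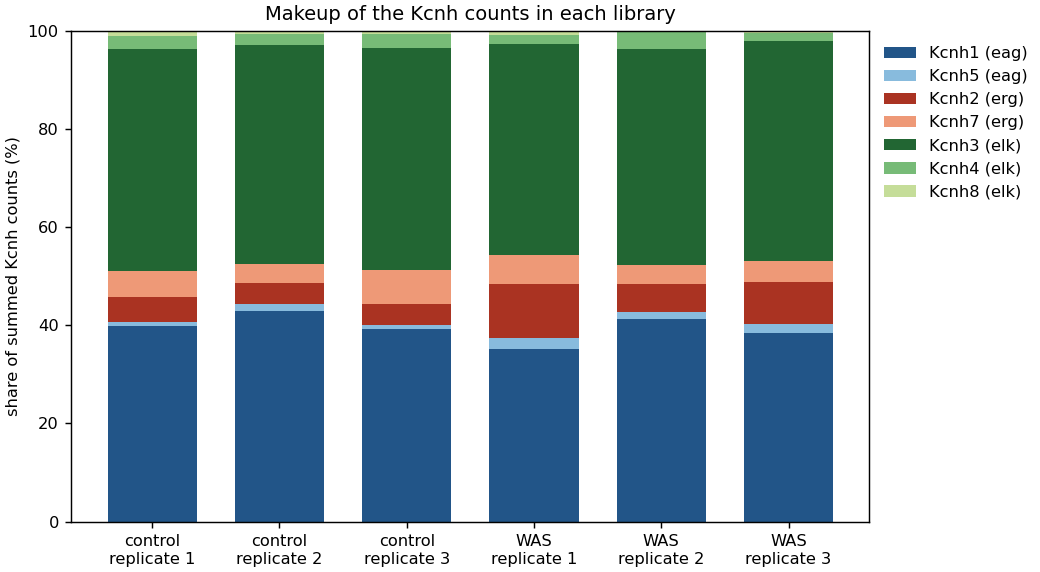
Stacked bars show the share of each gene in the summed counts of the 7 Kcnh genes, in percent, for each library. Kcnh1 and Kcnh3 fill between 78.3% and 87.5% of every bar, and the Kcnh2 segment is largest in WAS replicate 1, at 11.0%.

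Of the 7 genes, 5 had a lower and 2 a higher mean in the libraries labelled WAS by the fitted log2 fold change, with a median of -0.50, where 49.8% of all genes tested were lower, 50.2% were higher and the median was 0.00084. The study's criteria were a fold of 1.5 or more together with an unadjusted p under 0.05. By these, 1 of the 7 genes was called (Kcnh7, lower), where 2.49% of all genes tested were called, 0.676% lower and 1.82% higher. At an unadjusted p under 0.05 alone, 4 of the 7 were called (Kcnh1, Kcnh3 and Kcnh7 lower, Kcnh2 higher), where 7.25% of all genes tested were called, 3.41% lower and 3.84% higher. The CPM of the groups did not overlap for 2 of the 7 genes, Kcnh7 and Kcnh2, where this held for 12.2% of all genes tested, 3.75% below and 8.42% above the controls. After Benjamini-Hochberg adjustment of the edgeR quasi-likelihood p over all genes tested, 0 of the 7 genes and 0 of all genes had an adjusted p under 0.05. All genes included 1104 at an unadjusted p under 0.05, and DESeq2 gave 22 genes at an adjusted p under 0.05. In bulk tissue, fewer cells that express a gene and less RNA per cell cannot be told apart.

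**Figure D2:**
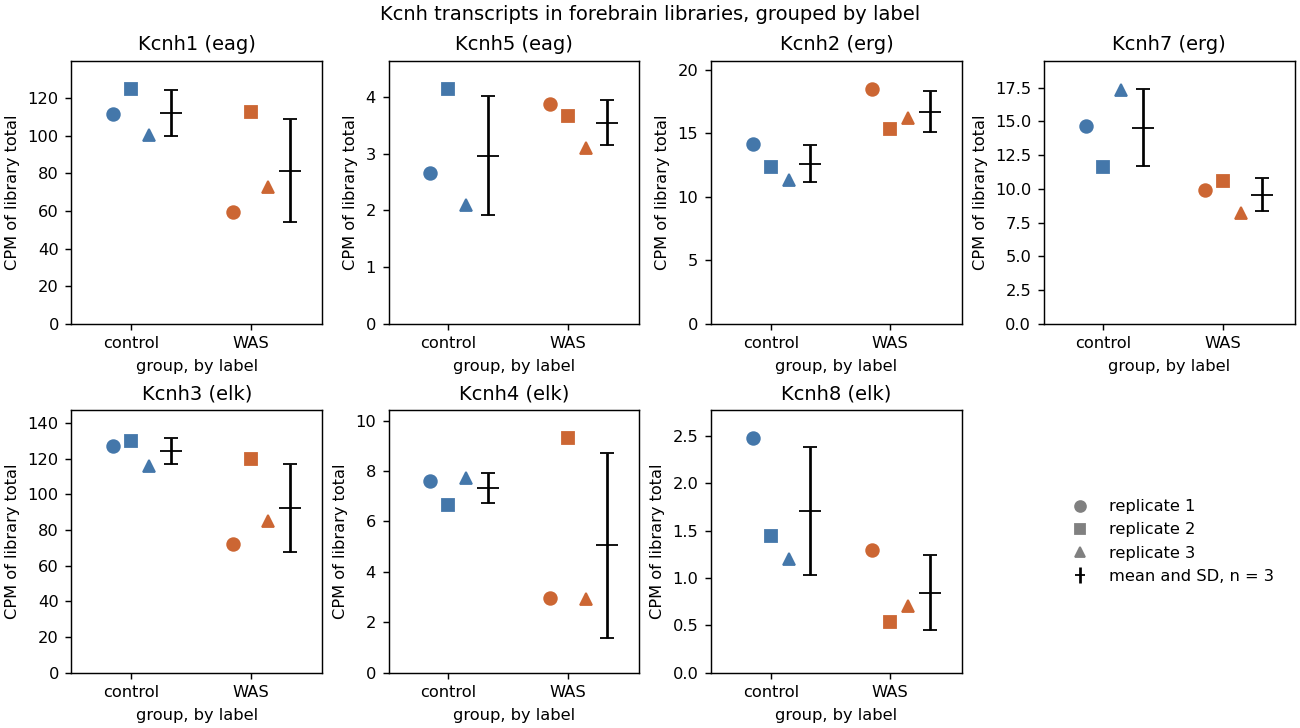
Points are the CPM of each Kcnh gene in each library, by labelled group and with a marker shape per replicate, and the bars beside them are the mean and SD of 3 libraries. The groups do not overlap for Kcnh7 and Kcnh2, while for Kcnh1, Kcnh3 and Kcnh4 the square of WAS replicate 2 sits among or above the controls.

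Kcnh7, an erg subunit of neurons, was lower in the libraries labelled WAS. Its counts were 100, 98 and 82 in the WAS-labelled replicates 1 to 3 and 154, 121 and 173 in the control replicates, or 9.93, 10.6 and 8.21 CPM against 14.7, 11.7 and 17.3 CPM. Every library labelled WAS lay below every control, but WAS replicate 2 and control replicate 2 were close, and the 95% exact Poisson intervals of their counts, which cover counting error only, overlapped (8.60 to 12.9 CPM and 9.67 to 13.9 CPM). The means were 9.58 ± 1.23 CPM (SD, n = 3) under WAS and 14.6 ± 2.84 CPM (SD, n = 3) under control. On the log2 scale the fold change was -0.64 (standard error, SE, 0.19, unadjusted p = 0.00686, adjusted p = 0.539 after Benjamini-Hochberg adjustment in edgeR). It lay under a fold of 1.5 without WAS replicate 3 (-0.54) or control replicate 3 (-0.49). Kcnh7 spans 490.9 kb of chromosome 2 (62693414 to 63184287, minus strand), and the last exon of its longest transcript overlaps the Gca gene on the opposite strand over 696 bases. These are the final 696 bases of that transcript, 1 of 3 annotated coding ends of Kcnh7, and whether the counting used strand is not given in the sources used here. Gca, which encodes the calcium-binding protein grancalcin, had counts of 228, 262 and 224 in the libraries labelled WAS against 412, 426 and 275 in those labelled control. This gave -0.59 on the log2 scale (SE 0.16, unadjusted p = 0.00354, adjusted p = 0.515 in edgeR). Gca was thus itself called lower by the study's criteria, as Kcnh7 was. Its lowest control was replicate 3, which was the highest control for Kcnh7. Without a strand, reads of both genes in this stretch cannot be told apart.

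Kcnh2, the erg gene of cardiac repolarisation that is also transcribed in neurons, was higher in the libraries labelled WAS. Its counts were 186, 142 and 162 in the WAS-labelled replicates 1 to 3 and 149, 128 and 113 in the control replicates. In CPM these were 18.5, 15.4 and 16.2 against 14.2, 12.3 and 11.3, so that the groups did not overlap. The means were 16.7 ± 1.61 CPM (SD, n = 3) under WAS and 12.6 ± 1.45 CPM (SD, n = 3) under control. The log2 fold change of 0.37 (SE 0.15, unadjusted p = 0.0361, adjusted p = 0.664 in edgeR) is under a fold of 1.5 and ran from 0.29 to 0.45 over the fits lacking 1 library. Its unadjusted p was above 0.05 with DESeq2 (0.0656) and without WAS replicate 1 (0.122), WAS replicate 3 (0.0585), control replicate 2 (0.0844) or control replicate 3 (0.105).

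Because both erg genes were read in the same libraries, their ratio does not depend on the scaling between libraries. There were 1.86, 1.45 and 1.98 counts of Kcnh2 per count of Kcnh7 in the WAS-labelled replicates 1 to 3, and 0.968, 1.06 and 0.653 in the control replicates. The ratio was 1.76 ± 0.277 (SD, n = 3) under WAS and 0.893 ± 0.212 (SD, n = 3) under control, and the groups did not overlap, the highest control being at 1.06 and the lowest WAS-labelled library at 1.45. Of the counts of both genes, Kcnh2 took 59.2% to 66.4% in the libraries labelled WAS and 39.5% to 51.4% in the controls. The ratio was chosen after the values were seen and was not tested, and because Kcnh2 lay above and Kcnh7 below all controls, its groups could not overlap. Set against Kcnh3, Kcnh2 had groups that did not overlap (0.128 to 0.255 under WAS and 0.0951 to 0.112 in the controls). Kcnh3 itself lay below all controls in WAS replicates 1 and 3, which raises this ratio there, and the ratio was not tested. Kcnh7 set against Kcnh3 had groups that overlapped (0.0883 to 0.137 and 0.0899 to 0.149). The ratio of Kcnh1 to Kcnh3 ran from 0.818 to 0.937 under WAS and from 0.865 to 0.963 in the controls, and the groups overlapped.

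**Figure D3:**
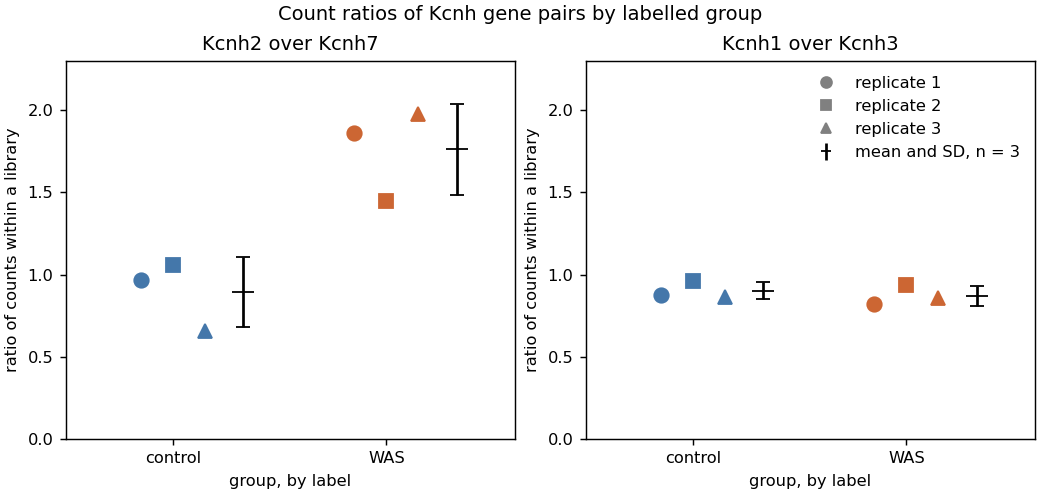
Points are count ratios within a library for Kcnh2 over Kcnh7 and Kcnh1 over Kcnh3, by labelled group and with a marker shape per replicate, and the bars are the mean and SD of 3 libraries. The erg ratio runs from 1.45 to 1.98 in the libraries labelled WAS and from 0.653 to 1.06 in the controls, whereas the groups overlap for Kcnh1 over Kcnh3.

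In the elk subfamily, Kcnh3, which is transcribed mainly in the cortex and hippocampus, had counts of 729, 1110 and 851 in the WAS-labelled replicates 1 to 3, against 1334, 1346 and 1159 in the control replicates. These were 72.4, 120.0 and 85.2 CPM against 127, 129.7 and 116 CPM. WAS replicate 2 lay above control replicate 3, and the other libraries labelled WAS lay below all controls. The means were 92.6 ± 24.6 CPM (SD, n = 3) under WAS and 124 ± 7.16 CPM (SD, n = 3) under control, with a log2 fold change of -0.46 (SE 0.15, unadjusted p = 0.0115, adjusted p = 0.581 in edgeR). Without WAS replicate 2 the log2 fold change was -0.69 and the adjusted p 0.00145, and with limma the unadjusted p was 0.0514. The last exon of Kcnh3 shares 1 base with Mcrs1 on the opposite strand.

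Kcnh4, an elk gene of the striatum and cortex, had the widest relative spread of the 7 among the libraries labelled WAS, with an SD of 72.5% of their mean CPM. Its counts were 30, 86 and 29 in the WAS-labelled replicates 1 to 3 and 80, 69 and 77 in the control replicates, or 2.98, 9.30 and 2.90 CPM against 7.62, 6.65 and 7.72 CPM. WAS replicate 2 held the highest level of all 6 libraries and WAS replicates 1 and 3 the lowest, while the controls were close to each other. The means were 5.06 ± 3.67 CPM (SD, n = 3) and 7.33 ± 0.591 CPM (SD, n = 3), and the log2 fold change of -0.58 (SE 0.39, unadjusted p = 0.169, adjusted p = 0.822 in edgeR) did not pass. Without WAS replicate 2 it was -1.35 with an adjusted p of 0.0151, without WAS replicate 1 or 3 it was -0.31 or -0.30, and with WAS replicate 2 as the only library of its group it turned to 0.30.

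Kcnh8, the rarest member, had counts of 13, 5 and 7 in the WAS-labelled replicates 1 to 3 and 26, 15 and 12 in the control replicates. WAS replicate 1 lay above control replicate 3, so the groups overlapped. The level was 0.844 ± 0.395 CPM (SD, n = 3) under WAS and 1.71 ± 0.676 CPM (SD, n = 3) under control. The log2 fold change of -1.03 was the lowest of the 7 but had a SE of 0.51 (unadjusted p = 0.0657, adjusted p = 0.709 in edgeR). It met the study's criteria with limma on quantile-normalized counts (-1.07) and without WAS replicate 1 (-1.48), and was -0.68 when control replicate 1 was left out. At the lowest count, 5 in WAS replicate 2, the 95% exact Poisson interval ran from 0.176 to 1.26 CPM, and it overlapped that of control replicate 3, at 0.621 to 2.10 CPM.

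In the eag subfamily, Kcnh1, which is known from a human developmental syndrome with epilepsy, had counts of 596, 1040 and 729 in the WAS-labelled replicates 1 to 3, against 1171, 1296 and 1003 in the control replicates. In CPM these were 59.2, 112 and 73.0 against 111.5, 125 and 100.5. WAS replicate 2 lay within the range of the controls and WAS replicates 1 and 3 below it, as for Kcnh3. The means were 81.6 ± 27.6 CPM (SD, n = 3) and 112 ± 12.2 CPM (SD, n = 3), and the log2 fold change was -0.50 (SE 0.19, unadjusted p = 0.0230, adjusted p = 0.625 in edgeR). Without WAS replicate 2 it was -0.80 with an adjusted p of 0.00152, and without WAS replicate 1 it was -0.32. Its unadjusted p in edgeR was 0.0710 in the fit lacking WAS replicate 1, 0.0790 lacking WAS replicate 3 and 0.0929 lacking control replicate 2, and 0.0750 with limma. Kcnh5, the other eag gene, had counts of 39, 34 and 31 against 28, 43 and 21. Its level was 3.55 ± 0.399 CPM (SD, n = 3) under WAS and 2.97 ± 1.05 CPM (SD, n = 3) under control, a log2 fold change of 0.22 (SE 0.33, adjusted p = 0.946), with the WAS libraries inside the range of the controls. It was 0.54 without control replicate 2, 0.031 without control replicate 3 and 0.14 and 0.15 in the fits lacking replicate 1 of either label.

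The fit without WAS replicate 2 gave 3 of the 7 genes (Kcnh1, Kcnh3 and Kcnh4) an adjusted p under 0.05 in the lower direction, where 1.78% of all genes tested passed in that direction and 1.4% in the other. By the study's criteria this fit called 4 of the 7 lower (those 3 and Kcnh7) and 0 higher, where 2.45% and 3.01% of all genes tested were called. In that fit Kcnh7 had a log2 fold change of -0.72 and an adjusted p of 0.110. With WAS replicate 2 kept as the only library of its group, a setting chosen after the data were seen, the log2 fold changes were -0.037 for Kcnh1, -0.090 for Kcnh3 and 0.30 for Kcnh4, and -0.50 for Kcnh7, 0.24 for Kcnh2, 0.27 for Kcnh5 and -1.68 for Kcnh8, and 0 of the 7 genes met the study's criteria.

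**Figure D4:**
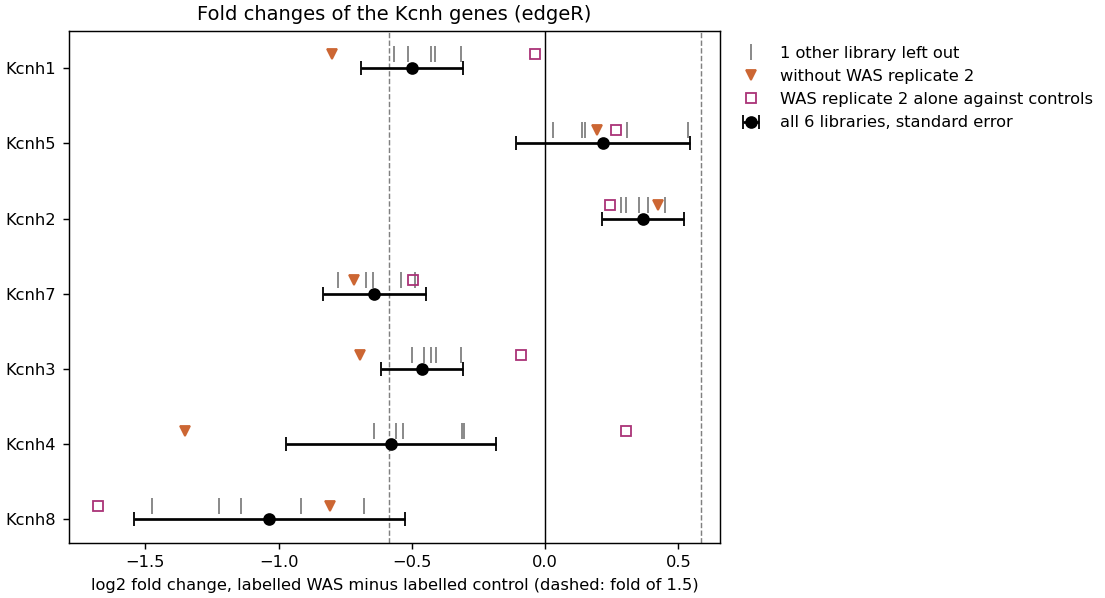
Black points with bars are the log2 fold changes of the libraries labelled WAS against those labelled control with their standard errors from edgeR, and the other symbols are the values with libraries left out. Kcnh4 runs from -1.35 without WAS replicate 2 to 0.30 with it alone, Kcnh8 goes the other way, from -0.81 to -1.68, and Kcnh7 runs from -0.78 to -0.49 over all these fits.

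The levels of Kcnh1, Kcnh3 and Kcnh4 moved with markers of brain regions. Of the striatal list, 9 of 10 genes were measured, 8 were tested and all 8 had a log2 fold change below 0. Its summed level ran from 182 to 2111 CPM in the libraries labelled WAS and from 1068 to 1462 CPM in the controls, and the highest and the lowest sums were in WAS replicates 2 and 1. Of the 10 genes for cortical projection neurons, all 10 were measured and below 0, with sums of 1108, 1387 and 1070 CPM in the WAS-labelled replicates 1 to 3, against 1410, 1503 and 1346 CPM in the control replicates. The 6 hippocampal genes went the other way, all 6 being above 0 with a median log2 fold change of 0.72, and summed to 163, 122 and 152 CPM under WAS and to 129, 84.3 and 106 CPM in the controls. Of the 8 thalamic genes, all were above 0, with sums of 819, 336 and 675 CPM against 341, 318 and 325 CPM. Of the 10 midbrain and hindbrain genes, 7 were tested and above 0, and Pax5 had at most 2 counts. WAS replicate 2 thus lay with the controls, or beyond them for the striatal genes, in the same libraries in which Kcnh1, Kcnh3 and Kcnh4 did. The part of these regional differences in the Kcnh results was not tested. Kcnh7 was lower and Kcnh2 higher in WAS replicate 2 as well, at -0.46 and 0.28 relative to the control mean on the log2 scale. In that library the striatal and choroid plexus lists were both at 0.70, the general neuronal list at -0.12, the midbrain and hindbrain list at -0.18, the cortical list at -0.034 and the thalamic list at 0.034. The summed general neuronal list, led by Syt1, was also below the controls in WAS replicates 1 and 3 (-0.19 and -0.16), as Kcnh7 was, while Nefl (0.12) and Nefm (0.031) of that list had log2 fold changes above 0. The part of any of these lists in the Kcnh7 and Kcnh2 results was not tested.

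**Figure D5:**
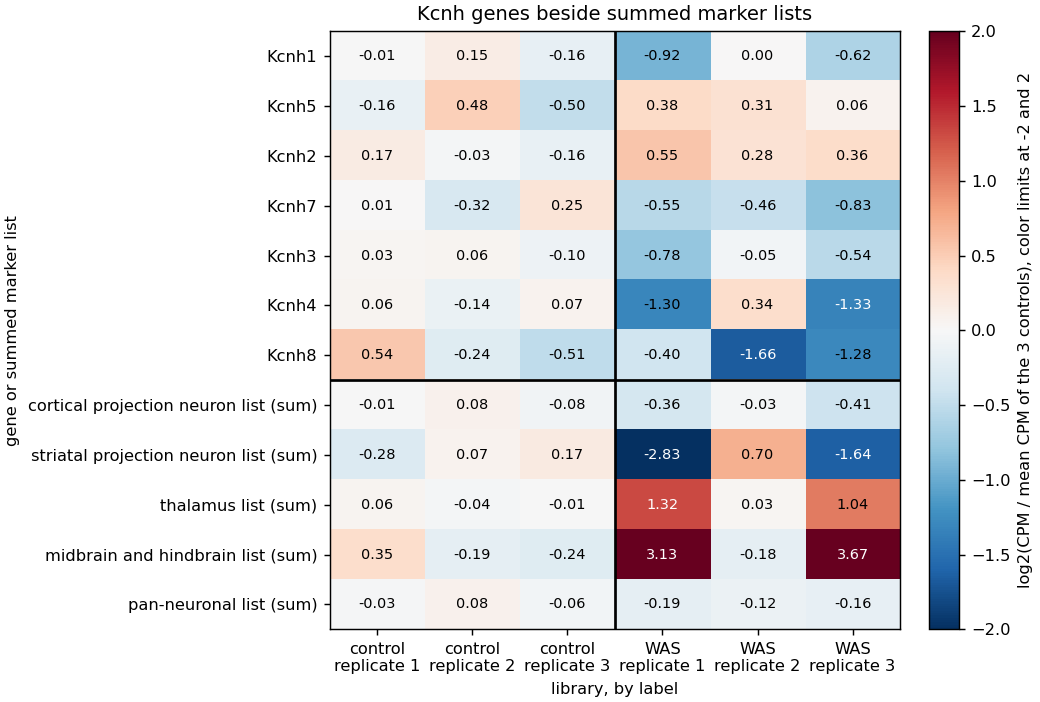
Each cell is the log2 ratio of a library's CPM to the mean CPM of the 3 controls, for each Kcnh gene and for the sums of marker lists, with the color scale limited to -2 and 2. In WAS replicates 1 and 3, Kcnh4 is at -1.30 and -1.33 beside -2.83 and -1.64 for the striatal list, and in WAS replicate 2 both are above 0.

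The HCN and CNG channels, which share the cyclic nucleotide-binding fold with the Kcnh family, were read as the nearest relatives. Of 10 genes, 5 were tested, all 5 were above 0 (50.2% of all genes) with a median log2 fold change of 0.092, and 0 had an unadjusted p under 0.05 by edgeR (7.25% of all genes). Hcn2, which carries a hyperpolarization-activated current, was at 121 ± 12.8 CPM (SD, n = 3) under WAS against 116 ± 16.7 CPM (SD, n = 3) under control. Its log2 fold change of 0.030 (SE 0.12) did not pass.

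Of 25 listed partners and regulators of Kcnh channels, 22 were tested, with 11 above and 11 below 0, a median of 0.0036, and 0 past the study's criteria. At an unadjusted p under 0.05 there were 3 (7.25% of all genes), all lower in the libraries labelled WAS, and those named here were chosen after their values were seen. Among them were the kinase gene Camk2a at -0.33 (SE 0.083) and the ubiquitin ligase gene Nedd4l at -0.24 (SE 0.087), with adjusted p of 0.477 and 0.624 in edgeR. The abundant chaperone gene Hsp90ab1 was at 0.031 (SE 0.095). The auxiliary subunit gene Kcne2, known from the choroid plexus, had counts of 0, 24 and 15 against 22, 1 and 18 and followed no label.

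The genes most like each member were found by Pearson's r of log2(CPM + 1) over the 6 libraries, among all genes tested. For Kcnh1 they were Tbr1 (0.997), a transcription factor of cortical projection neurons, Hiatl1 (0.996) and Nop14 (0.994). For Kcnh3 they were Homer1 (0.995), a postsynaptic scaffold gene, Kcnh1 itself (0.992) and Hiatl1 (0.989). For Kcnh4 they were Cpne5 (0.992), Fstl4 (0.990) and Mak (0.990). Tbr1 had counts of 730, 1219 and 893 in the WAS-labelled replicates 1 to 3, against 1316, 1512 and 1148 in the controls, the same order of libraries as for Kcnh1. For Kcnh7 the nearest genes were Pitpnm2 (0.982), Hist1h2ao (0.976) and Prr7 (0.973), and for Kcnh2 they were Sri (0.986), the gene of the calcium-binding protein sorcin, Poglut1 (0.986) and Slc13a3 (0.985). For Kcnh5 they were D330050I16Rik (0.996), 2610005L07Rik (0.985) and Zscan22 (0.981), and for Kcnh8 LOC105246506 (0.993), Ccdc28b (0.980) and Tcta (0.977). Between members, r was 0.992 for Kcnh1 and Kcnh3, 0.913 for Kcnh3 and Kcnh4, and -0.76 for Kcnh2 and Kcnh7. These values describe 6 points that share the group difference, the library totals and the regional differences above.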

How the data were processed

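RNA from 3 mice labelled WAS and 3 labelled control was sequenced by QuantSeq 3′ mRNA-Seq. The authors aligned reads with Bowtie2 and deposited raw read counts per gene symbol, taken from unique and multiple alignments with Bedtools coverage. The submitters' processing notes name mm10. Tool versions, annotation and strand use are not given in the sources used here. Since multiple alignments were counted, near-identical genes can share reads. The final 500 bases of the longest coding transcript of each Kcnh gene (GENCODE M21) were searched in the sense direction. No 50-base stretch of them was found in a transcript of another gene in that direction. The opposite strand was not searched, and Gca lies there over the final 696 bases of the longest Kcnh7 transcript.

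Genes whose quantile-normalized log2(count + 1) averaged 2 or more were kept, which left 15237. They were tested in edgeR 4.0.16 (R 4.3.3) with TMM scaling and quasi-likelihood F tests, adjusted by Benjamini-Hochberg over all of them. Fold changes are WAS over control, and SE is derived from the F statistic. An exact permutation test of 3 against 3 cannot give p below 0.1. Alternatives were total-count scaling, DESeq2 1.42.0, limma 3.58.1, other filters, a replicate block, and fits lacking 1 library. The genes and lists were chosen with earlier results of these data known. Named genes are the 7 members and Kcnh6, the 2 most abundant of each related list and those past the criteria, and the 3 genes with the highest r for each member. Some genes that this rule names are not reported here. Other names were chosen after their values were seen.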

Additional observations from a re-analysis of the deposited data

How the results depend on the processing

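Of the 84 values of the 7 Kcnh genes under the 12 other settings, 77 had the direction and the side of the study's criteria given above, 5 passed the criteria where the value above did not, 2 lost them, and 0 turned around. Kcnh7 lost them without WAS replicate 3 (-0.54) and without control replicate 3 (-0.49), and over the fits that left out 1 library its log2 fold change ran from -0.78 to -0.49. With only WAS replicate 2 kept in its group, a setting chosen after seeing the data, Kcnh7 was at -0.50, Kcnh4 turned to 0.30, 0 Kcnh genes were called lower, 169 genes in all were called lower and 1 gene passed an adjusted p of 0.05, the lone library being assumed to vary like the controls. The count of Kcnh genes called lower, 1 above, was 2 with limma on quantile-normalized log2 counts, where 192 genes in all were called lower in place of 103. It ran from 0 to 4 with 1 library left out. In these 6 fits the genes past the study's criteria ran from 262 to 831 in place of 380, those higher from 181 to 458 in place of 277, those lower from 81 to 373, and those past an adjusted p of 0.05 from 0 to 485. The highest of each came without WAS replicate 2. DESeq2 gave 22 genes past an adjusted p of 0.05 in place of 0. The replicate number as a block gave 50, and it changed no call of a Kcnh gene. Deviations of same-numbered libraries correlated at 0.061, 0.078 and 0.087, each the best match of its libraries but none above 0.1, so the numbers were not taken to pair the samples. The cause of these shifts was not tested. Depth limits Kcnh8 and Kcnh5 most, with 5 to 26 and 21 to 43 counts.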
